A study of Homo sapiens with 8 samples.

Results

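MicroRNAs known from neurons and from hormone-secreting cells of the gut and pancreas were followed in HCT116, a human colorectal cancer cell line, in cells sorted by the surface protein CD44v6. The 7 members were taken by name from the deposited count table, as the rows hsa-miR-9-5p, hsa-miR-9-3p, hsa-miR-7-5p, hsa-miR-375, hsa-miR-138-5p, hsa-miR-129-5p and hsa-miR-124-3p, and are given below without the species prefix. All 7 rows were present among the 2026 entries of the table, and each had at least 1 read in some sample. Of the 7, 6 passed the filter on low counts and were tested, and miR-124-3p did not.

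CD44v6-positive HCT116 cells (2 samples) were compared with CD44v6-negative HCT116 cells (2 samples), with no genetic change or drug treatment given for either. The protein is a variant of CD44, a receptor for hyaluronan, and is used as a marker of stem-like colorectal cancer cells. Both groups came from spheroids, which are clusters of floating cells grown in serum-free medium with growth factors, and were separated by fluorescence-activated sorting after dead cells were stained with propidium iodide. The labels list 8 sequencing entries that merge into 4 combined samples, and nothing in them says that samples 1 and 2 of a group were separate cultures, so the p-values reflect the spread of these 4 samples alone, and that spread may be technical.

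A microRNA (miRNA) is a short RNA cut from a hairpin precursor; it pairs with messenger RNAs through its seed, bases 2 to 8, and represses them. miR-9 and miR-124 are classical miRNAs of the nervous system, where miR-9 acts in neural progenitors and miR-124 in neurons. miR-375 and miR-7 are enriched in pancreatic islets and other endocrine cells, and miR-375 is also found in the gut epithelium. miR-138 and miR-129 have been studied in rodent neurons, among other cells, and in those neurons they act at synapses and dendrites.

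The mature sequences are shown because the reads of each member are assigned by sequence, and because the seed decides which messengers a miRNA can pair with. They were taken from RefSeq on GRCh38.p14, where 6 of the 7 members were matched, and the seed is in capitals. No sequence is shown for miR-124-3p. The table gives miR-375 without an arm, and the sequence shown for it is the 3p arm, to which the older name refers.
miR-375: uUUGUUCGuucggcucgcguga
miR-7-5p: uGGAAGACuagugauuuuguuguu
miR-9-5p: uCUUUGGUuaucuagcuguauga
miR-9-3p: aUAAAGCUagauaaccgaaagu
miR-138-5p: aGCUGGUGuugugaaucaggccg
miR-129-5p: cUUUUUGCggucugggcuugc
The 6 seeds are all different, and no other mature miRNA in the RefSeq table of 2370 names carries any of them. These 6 members therefore share neither seed nor, as the positions below show, a common precursor, apart from the 2 arms of miR-9, which share their precursors. Their lengths run from 21 to 24 bases, so levels are given without a correction for length.

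Several members can be cut from more than 1 hairpin, and reads of identical mature sequence cannot be assigned to a copy. On GRCh38, GENCODE release 29 places the 14 hairpins of these 6 families on 12 chromosomes. miR-9 comes from MIR9-1 (chr1:156420341-156420429, minus strand, in an intron of C1orf61), MIR9-2 (chr5:88666853-88666939, minus strand, in an exon of the noncoding gene LINC00461) and MIR9-3 (chr15:89368017-89368106, plus strand, in an intron of MIR9-3HG). miR-7-5p comes from MIR7-1 (chr9:83969748-83969857, minus strand, inside HNRNPK and touching an annotated exon of it), MIR7-2 (chr15:88611825-88611934, plus strand, in no gene of that strand) and MIR7-3 (chr19:4770670-4770779, plus strand, in an intron of MIR7-3HG). miR-375 has the single hairpin MIR375 (chr2:219001645-219001708, minus strand), which lies in no annotated gene of its strand. MIR138-1 on chromosome 3 (44114212 to 44114310), MIR138-2 on chromosome 16 (56858518 to 56858601) and MIR129-1 on chromosome 7 (128207872 to 128207943) lie in no annotated gene of their strand, and MIR129-2 on chromosome 11 (43581394 to 43581483) lies in an intron of a noncoding gene.

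The hairpins MIR9-1 and MIR375 show where the arms sit in a precursor that yields a pair and in one counted under a single name. Capitals mark the mature arms, the 5p arm first.
MIR9-1 (chr1:156420341-156420429, minus strand): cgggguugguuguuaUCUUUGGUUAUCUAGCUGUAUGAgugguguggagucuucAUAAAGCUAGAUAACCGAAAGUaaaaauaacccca
MIR375 (chr2:219001645-219001708, minus strand): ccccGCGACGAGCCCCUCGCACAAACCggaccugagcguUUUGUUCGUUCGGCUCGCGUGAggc

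Depth differed between the groups. The CD44v6-positive samples held 919802 and 154481 reads and the CD44v6-negative samples 7880631 and 4592278 reads. Levels are given as CPM, reads per 1000000 after TMM scaling, a correction for library composition, and a count of 0 allows a level of up to 3.24 and 15.6 CPM in the CD44v6-positive samples and 0.574 and 0.544 CPM in the CD44v6-negative samples (3 reads each, counting error only). With edgeR's quasi-likelihood test over 570 miRNAs, 0 passed a Benjamini-Hochberg adjusted p under 0.05, while 74 higher and 100 lower ones (30.5% in all) had an unadjusted p under 0.05 and 339 (59.5%) did not overlap between the groups. DESeq2 called 51 miRNAs (8.46% of those it could adjust) and limma-voom called 4 (0.702%).

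The sorted cells carried epithelial miRNAs in every sample. All 8 listed markers of colorectal epithelium were read. They summed to 17813 and 14076 CPM in the CD44v6-positive samples and to 33839 and 20686 CPM in the CD44v6-negative samples. Single markers went different ways. miR-192-5p was at 1032 and 4560 CPM in the CD44v6-positive samples and at 1888 and 1322 CPM in the CD44v6-negative samples. miR-194-5p and miR-215-5p were also highest in CD44v6-positive sample 2. miR-141-3p, miR-200a-3p and miR-429 were lower in both CD44v6-positive samples, and miR-200b-3p and miR-200c-3p overlapped between the groups. Of 4 muscle markers, miR-133b and miR-206 had 0 reads everywhere, and the sum did not exceed 6.47 CPM in any sample. miR-122-5p, the defining liver miRNA, was at 48.6 and 609.7 CPM in the CD44v6-positive samples and at 4.59 and 3.99 CPM in the CD44v6-negative samples. The 7 blood markers, all read, summed to 3784 and 3737 CPM in the CD44v6-positive samples and to 3138 and 1413 CPM in the CD44v6-negative samples. Most of that sum was miR-486-5p alone. It was at 3688 and 3111 CPM in the CD44v6-positive samples and at 2975 and 1289 CPM in the CD44v6-negative samples. The red-cell miRNA miR-451a was at 15.1 and 281 CPM in the CD44v6-positive samples and at 24.9 and 7.62 CPM in the CD44v6-negative samples. The 2 endothelial arms of miR-126 summed to 1394 and 1099.6 CPM in the CD44v6-positive samples and to 4178 and 2699.9 CPM in the CD44v6-negative samples. Apart from the muscle markers, these summed levels, miR-122-5p and miR-451a moved with the groups or with CD44v6-positive sample 2. The part of any marker in the results was not tested.

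The members did not move as 1 group in this sort. miR-375 was higher in both CD44v6-positive samples, miR-7-5p and miR-9-3p were lower in both, miR-9-5p was lower by a smaller margin, and miR-138-5p, miR-129-5p and miR-124-3p did not exceed 27.0 CPM in any sample. None of the 6 tested members passed the edgeR threshold, so every difference below is a value that did not pass. In sorted bulk samples, fewer cells with a miRNA and less of it per cell cannot be told apart.

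The 7 members together took 0.510% and 0.667% of all reads in the CD44v6-positive samples and 0.338% and 0.396% in the CD44v6-negative samples. Nearly all of these reads came from miR-375, miR-9-5p and miR-7-5p, which made up 98.9% and 99.4% of them in the CD44v6-positive samples and 97.8% and 98.2% in the CD44v6-negative samples. miR-375 alone gave 75.5% and 86.6% of the members' reads in the CD44v6-positive samples, against 34.3% and 37.1% in the CD44v6-negative samples. The summed level of the 7 was 5060 and 5373 CPM in the CD44v6-positive samples and 5103 and 3295 CPM in the CD44v6-negative samples, so the makeup of the set differed more clearly than its total.

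**Figure D1:**
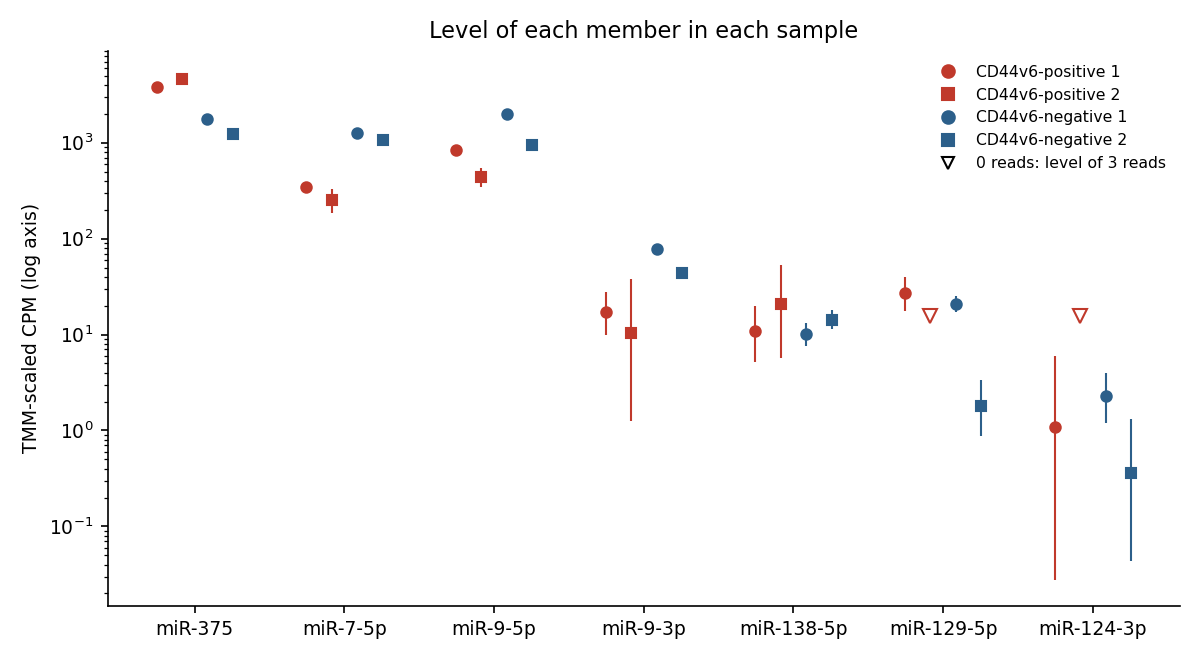
TMM-scaled CPM (log axis) of each member in the 2 CD44v6-positive samples (red) and the 2 CD44v6-negative samples (blue), 1 point per sample with the 95% Clopper-Pearson interval of its count; open triangles mark samples with 0 reads, drawn at the level of 3 reads. Both red points lie above both blue points for miR-375 and below them for miR-7-5p, miR-9-5p and miR-9-3p, and the last 3 members rest on few reads.

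miR-375, the islet and enteroendocrine miRNA known in mouse islets to restrain insulin release, was read 3538 and 893 times in the CD44v6-positive samples and 9154 and 6750 times in the CD44v6-negative samples. Corrected for depth this was 3818 and 4654 CPM in the CD44v6-positive samples, against 1751 and 1224 CPM in the CD44v6-negative samples. Both CD44v6-positive samples lay above both CD44v6-negative samples, and the counting intervals of the closest pair, 3693 to 3945 CPM in CD44v6-positive sample 1 and 1716 to 1788 CPM in CD44v6-negative sample 1, were far apart. The mean of 4236 ± 591 CPM in CD44v6-positive cells stood against 1488 ± 373 CPM in CD44v6-negative ones (SD, n = 2), and the fitted log2 fold change was 1.51 ± 0.45 (SE; edgeR unadjusted p = 0.0148, adjusted p = 0.117). Of all tested miRNAs, 13.0% had an unadjusted p under 0.05 and were higher in CD44v6-positive cells. By number of reads miR-375 was the entry of rank 42 and 32 in the CD44v6-positive samples and of rank 72 and 71 in the CD44v6-negative samples.

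The difference in miR-375 did not rest on 1 sample. With each sample left out in turn its log2 fold change ran from 1.45 to 1.86, and it was 1.57 without CD44v6-positive sample 2, the library with the high miR-122-5p. With total count scaling it was 1.87 and passed (edgeR adjusted p = 0.0272), and with no filter on low counts it was 1.06 (adjusted p = 0.569). DESeq2 did not call it (adjusted p = 0.192).

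miR-7-5p, which represses the growth factor receptor EGFR and other signalling genes and is abundant in islets, was lower in both CD44v6-positive samples. It had 324 and 48 reads in the CD44v6-positive samples and 6591 and 5876 reads in the CD44v6-negative samples. These were 349.6 and 250.1 CPM in CD44v6-positive cells and 1261 and 1065 CPM in CD44v6-negative cells, with no overlap. The mean was 299.9 ± 70.3 CPM in CD44v6-positive cells and 1163 ± 138 CPM in CD44v6-negative cells (SD, n = 2), and the log2 fold change was -1.95 ± 0.49 (edgeR unadjusted p = 0.00675, adjusted p = 0.110). Among all tested miRNAs, 17.5% had an unadjusted p under 0.05 and were lower in CD44v6-positive cells. DESeq2 called miR-7-5p lower (log2 fold change -2.11, adjusted p = 0.0362), as one of the 4.98% of miRNAs that it called in that direction. With 1 sample left out the edgeR value ran from -2.34 to -1.51, without CD44v6-positive samples 1 and 2 in that order.

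The opposite arm of the hairpin MIR7-1 was counted under its own name, since miR-7-1-3p can be told from the 3p arm of MIR7-2 by 4 of its 22 bases. This arm comes from a precursor that also yields miR-7-5p and was read in the same libraries, so it adds no separate evidence. Its sequence, with the seed in capitals, is:
miR-7-1-3p: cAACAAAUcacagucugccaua
It had 33 and 9 reads in the CD44v6-positive samples and 705 and 1012 reads in the CD44v6-negative samples, or 35.6 and 46.9 CPM in CD44v6-positive cells and 134.9 and 183 CPM in CD44v6-negative cells. The log2 fold change of -1.98 ± 0.58 (edgeR adjusted p = 0.117) was close to that of miR-7-5p, and DESeq2 called it lower (adjusted p = 0.0475). miR-7-2-3p, from MIR7-2, had 1 and 0 reads in the CD44v6-positive samples and 1 and 3 reads in the CD44v6-negative samples. Between miR-7-1-3p and miR-7-2-3p, the reads thus came almost entirely under MIR7-1, the copy inside HNRNPK. No 3p arm of MIR7-3 was among the listed arms, so these reads do not speak to that copy.

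The ratio of 2 miRNAs read in the same library does not depend on how libraries are scaled. miR-375 had 10.9 and 18.6 reads for each read of miR-7-5p in the CD44v6-positive samples, against 1.39 and 1.15 in the CD44v6-negative samples. The 2 endocrine miRNAs were thus read nearly as often as each other in CD44v6-negative cells and about an order of magnitude apart in CD44v6-positive cells. The mean log2 ratio differed by 3.50 between the groups, with no overlap (2 samples per group, exact two-sided permutation p = 0.333, the smallest that 2 against 2 can give). Because this ratio sets a higher member against a lower one, its separation follows from the differences in level of the members. It adds no separate evidence. The same holds for miR-375 to miR-9-5p, which gave 4.57 and 10.6 in the CD44v6-positive samples, against 0.885 and 1.29 in the CD44v6-negative samples.

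The ratio of the miR-7 arms overlapped between the groups. miR-7-5p had 9.82 and 5.33 reads for each read of miR-7-1-3p in the CD44v6-positive samples, and 9.35 and 5.81 in the CD44v6-negative samples. The difference in mean log2 ratio was -0.026 (exact two-sided permutation p = 1, 2 samples per group), and within each group sample 1 had the higher ratio. Because miR-7-5p can also come from MIR7-2 and MIR7-3, this ratio is not that of 1 hairpin.

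**Figure D2:**
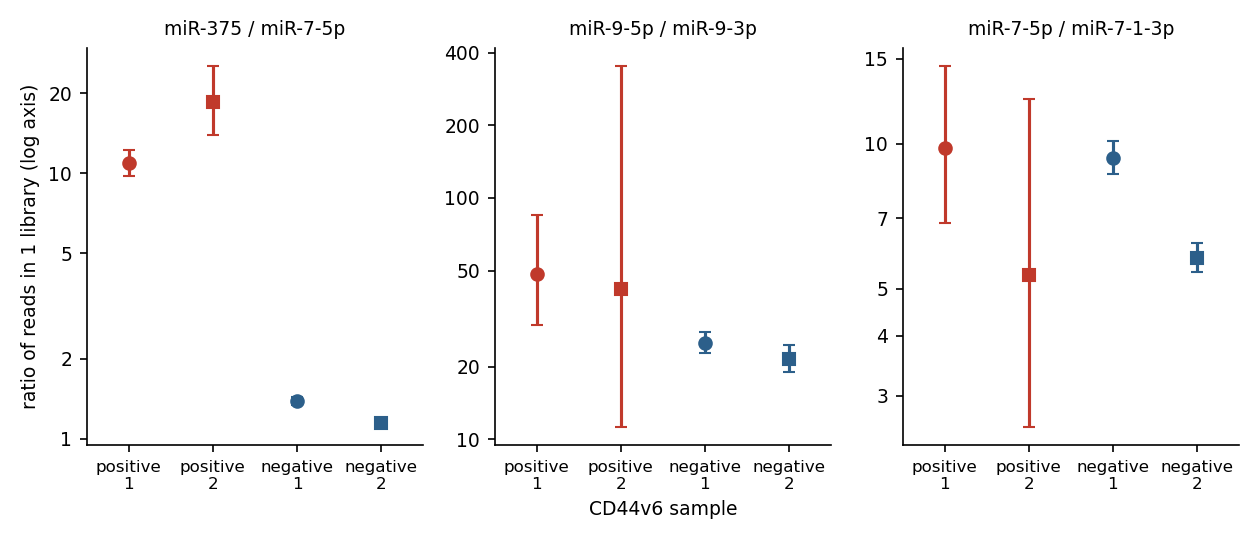
Ratios of reads within each library (log axis) for miR-375 to miR-7-5p, miR-9-5p to miR-9-3p and miR-7-5p to miR-7-1-3p, in the 2 CD44v6-positive samples (red) and the 2 CD44v6-negative samples (blue); bars are 95% Clopper-Pearson intervals. The first ratio is at 10.9 and 18.6 in CD44v6-positive samples and at 1.39 and 1.15 in CD44v6-negative samples, whereas the last overlaps between the groups.

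miR-9-5p, the guide arm that acts in neural progenitors, was a well-read member of this colorectal line. It had 775 and 84 reads in the CD44v6-positive samples and 10339 and 5216 reads in the CD44v6-negative samples, which is 836 and 438 CPM in CD44v6-positive cells and 1978 and 946 CPM in CD44v6-negative cells. The CD44v6-positive samples were the lower ones, but CD44v6-positive sample 1 and CD44v6-negative sample 2 were close, with counting intervals of 778 to 897 and 920.2 to 972 CPM. The log2 fold change was -1.19 ± 0.60 (edgeR adjusted p = 0.225), with a mean of 637 ± 282 CPM for CD44v6-positive cells against 1462 ± 730.0 CPM for CD44v6-negative ones (SD, n = 2). Its size rested on single samples: leaving out CD44v6-negative sample 1 gave -0.49, leaving out CD44v6-positive sample 2 gave -0.61, and leaving out CD44v6-positive sample 1 gave -1.85.

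miR-9-3p, the arm also called miR-9*, is known to act on a partner of the neuronal silencer REST. It had 16 and 2 reads in the CD44v6-positive samples and 412 and 242 reads in the CD44v6-negative samples. The levels were 17.3 and 10.4 CPM in CD44v6-positive cells and 78.8 and 43.9 CPM in CD44v6-negative cells, without overlap, and the log2 fold change was -2.05 ± 0.69 (edgeR unadjusted p = 0.0242, adjusted p = 0.130). The interval of CD44v6-positive sample 2, from 2 reads, reached from 1.26 to 37.7 CPM, just short of the CD44v6-negative samples. With 1 sample left out the value ran from -2.67 to -1.50.

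Within miR-9 the 3p arm made up 2.02% and 2.33% of the reads of both arms in the CD44v6-positive samples and 3.83% and 4.43% in the CD44v6-negative samples. The 95% Clopper-Pearson intervals were 1.16% to 3.26% and 0.283% to 8.15% in the CD44v6-positive samples and 3.48% to 4.21% and 3.90% to 5.01% in the CD44v6-negative samples. The share was thus lower in CD44v6-positive sample 1 beyond counting error, and CD44v6-positive sample 2 was too shallow to tell. The mean log2 ratio of 5p to 3p differed by 0.96 between the groups (2 samples per group, exact two-sided permutation p = 0.333, the smallest possible).

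**Figure D3:**
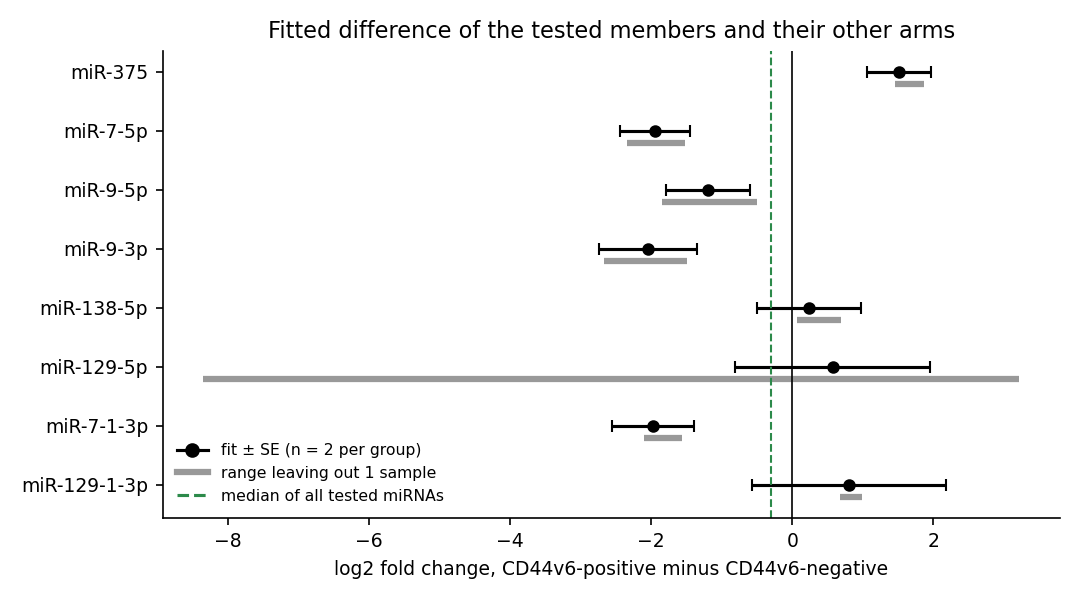
Log2 fold change, CD44v6-positive minus CD44v6-negative, of the 6 tested members and of miR-7-1-3p and miR-129-1-3p, with its standard error (black, n = 2 per group), the range when 1 sample is left out (grey) and the median of all tested miRNAs (dashed line, -0.31). miR-375 lies at 1.51 and miR-7-5p, miR-9-3p and miR-7-1-3p near -2, while the grey bar of miR-129-5p runs from -8.35 to 3.21.

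miR-138-5p, which limits the growth of dendritic spines in rat neurons, was low in both groups. Its 10 and 4 reads in the CD44v6-positive samples and 53 and 79 reads in the CD44v6-negative samples stand for 10.8 and 20.8 CPM in CD44v6-positive cells and 10.1 and 14.3 CPM in CD44v6-negative cells. The groups overlapped, and the log2 fold change was 0.24 ± 0.74 (edgeR adjusted p = 0.853). At this depth a difference was not detectable, since the counting intervals of the CD44v6-positive samples, 5.17 to 19.8 and 5.68 to 53.4 CPM, contain both CD44v6-negative levels. The value turned to -0.16 with no filter on low counts. Of the 3p arms, miR-138-1-3p had 0 reads in every sample and miR-138-2-3p had 1 read, in CD44v6-positive sample 1.

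miR-129-5p, reported to repress a potassium channel in rat neurons, differed more within the groups than between them. It had 25 and 0 reads in the CD44v6-positive samples and 109 and 10 reads in the CD44v6-negative samples. The levels were 27.0 CPM in CD44v6-positive sample 1 and 0 CPM in sample 2, where up to 15.6 CPM is allowed, against 20.9 and 1.81 CPM in the CD44v6-negative samples. In both groups sample 1 was the high one, and the groups overlapped (log2 fold change 0.57 ± 1.38, edgeR adjusted p = 0.800). Without CD44v6-negative sample 1 the value was 3.21, without CD44v6-negative sample 2 it was -0.16, and without CD44v6-positive sample 1, which leaves a CD44v6-positive count of 0, it was -8.35 and is no bound on the size.

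The other arms of miR-129 showed part of the same pattern at lower counts. miR-129-1-3p had 5 and 1 reads in the CD44v6-positive samples and 30 and 2 reads in the CD44v6-negative samples, or 5.40 and 5.21 CPM in CD44v6-positive cells and 5.74 and 0.363 CPM in CD44v6-negative cells. CD44v6-negative sample 1 again stood above CD44v6-negative sample 2. miR-129-2-3p, which differs from miR-129-1-3p at a single base (U20C, counted from the 5′ end of miR-129-1-3p), was at 0 reads in each CD44v6-positive sample and at 2 and 0 reads in the CD44v6-negative samples. Reads of 2 arms this alike could have been split between them by the counting.

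miR-124-3p, the most characteristic miRNA of mature neurons, was close to absent. It had 1 and 0 reads in the CD44v6-positive samples and 12 and 2 reads in the CD44v6-negative samples, which is 1.08 and 0 CPM in CD44v6-positive cells and 2.30 and 0.363 CPM in CD44v6-negative cells. The count of 0 in the shallow CD44v6-positive sample 2 allows up to 15.6 CPM, more than was read in any other sample, so no difference between the groups was detectable. miR-124-5p was at 0 reads in each CD44v6-positive sample and at 0 and 3 reads in the CD44v6-negative samples. Of the best known neural miRNAs, both arms of miR-9 were thus read in every sample of this line, and miR-124-3p was at or near 0.

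Ordered by level, the CD44v6-positive samples ran from miR-375 through miR-9-5p and miR-7-5p to the rest, and these 3 did not overlap with each other over the 2 samples. In the CD44v6-negative samples the same 3 miRNAs, at 1224 to 1751, 946 to 1978 and 1065 to 1261 CPM, could not be placed in an order beyond their spread. Below them came miR-9-3p at 43.9 to 78.8 CPM in the CD44v6-negative samples, and then miR-138-5p and miR-129-5p, which overlapped there. In the CD44v6-positive samples miR-9-3p, miR-138-5p and miR-129-5p all overlapped.

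Counted over the 6 tested members, 3 had log2 fold changes above 0 and 3 below, with a median of -0.48 against -0.31 over all 570 tested miRNAs. At an unadjusted edgeR p under 0.05 there were 1 higher (miR-375) and 2 lower (miR-7-5p and miR-9-3p) members, beside 30.5% of all tested miRNAs. Groups did not overlap for 4 of the 6, of which 1 was higher and 3 lower, beside 24.9% of tested miRNAs higher and 34.6% lower. Changes of at least 1 on the log2 scale were found in the same 4 members, beside 56.1% of all tested miRNAs (23.3% higher and 32.8% lower). With only 6 members, these counts are too small to be set apart from the shares over the whole table.

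**Figure D4:**
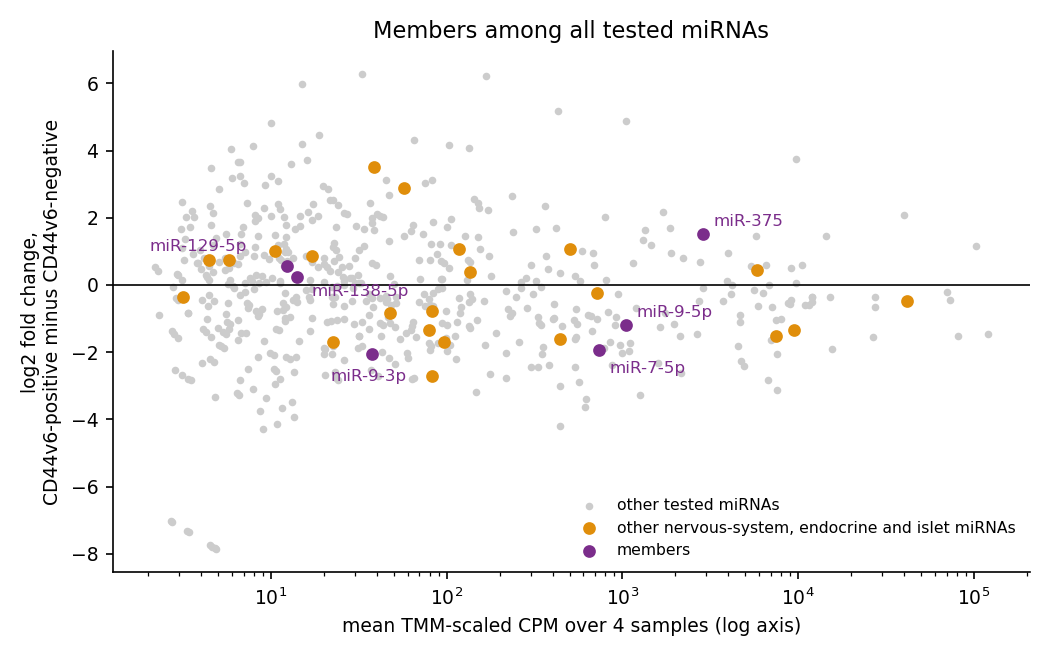
Log2 fold change, CD44v6-positive minus CD44v6-negative, against the mean TMM-scaled CPM of 4 samples (log axis) for the 570 tested miRNAs (grey), with the 6 tested members (purple) and the tested miRNAs of the other nervous-system, endocrine and islet lists (orange). The members lie within the cloud of all tested miRNAs at their own level, with miR-375 on its upper side and miR-7-5p and miR-9-3p on its lower side.

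Other miRNAs known from the nervous system went both ways as well. Of 21 listed, 18 had a read and 16 were tested, 9 with log2 fold changes above 0 and 7 below, with a median of 0.43 against -0.31 over all tested miRNAs. With edgeR 0 passed and 1 higher and 1 lower had an unadjusted p under 0.05, beside 13.0% higher and 17.5% lower of all tested miRNAs. These, miR-338-3p and miR-153-3p, were called by DESeq2 in the same directions. miR-338-3p, an oligodendrocyte miRNA, was at 17.3 and 125 CPM in the CD44v6-positive samples and at 8.42 and 3.08 CPM in the CD44v6-negative samples (log2 fold change 3.52 ± 1.12, edgeR adjusted p = 0.12). Most of that level came from CD44v6-positive sample 2, the library high in miR-122-5p, and the value was 1.77 without it (adjusted p = 0.286), while without any other 1 sample it passed the edgeR threshold at 3.17 to 4.48. miR-153-3p, found in neurons and islets, was at 29.1 and 10.4 CPM in the CD44v6-positive samples and at 170.1 and 118 CPM in the CD44v6-negative samples (-2.72 ± 0.69, edgeR adjusted p = 0.110), and leaving out single samples gave -3.90 to -2.10, passing without CD44v6-positive sample 1 (adjusted p = 0.0319) and without CD44v6-negative sample 2 (adjusted p = 0.0323).

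The remaining 14 tested nervous-system miRNAs had edgeR adjusted p of 0.179 or more. Positive log2 fold changes were seen for miR-330-3p (1.06), miR-149-5p (1.06), miR-346 (1.02), miR-184 (0.86), miR-885-5p (0.74), miR-212-3p (0.74), miR-181a-5p (0.46) and miR-132-3p (0.40). Negative ones were seen for miR-218-5p (-1.71), miR-326 (-1.33), miR-95-3p (-0.83), miR-139-5p (-0.76), miR-874-3p (-0.37) and miR-128-3p (-0.24), the last of which turned positive with upper quartile scaling (0.073). miR-137, miR-383-5p and miR-488-3p had 0 reads in every sample. miR-219a-5p, an oligodendrocyte miRNA that was not tested, was at 0 reads in each CD44v6-positive sample and at 24 and 26 reads in the CD44v6-negative samples, or 4.59 and 4.71 CPM, a level that CD44v6-positive sample 1 would have shown above its limit of 3.24 CPM and sample 2 would not.

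The endocrine and islet miRNAs beyond the members stood mostly below their CD44v6-negative level. All 8 listed, of which miR-184 and miR-153-3p are also in the nervous-system list, were tested, 6 with negative and 2 with positive log2 fold changes and a median of -1.44. Over all 570 tested miRNAs 316 were below 0 and the median was -0.31. Among the 8, miR-182-5p, miR-183-5p and miR-96-5p belong to 1 gene cluster and are not separate cases. At an unadjusted edgeR p under 0.05 there were 5 lower and 1 higher, beside 17.5% and 13.0% of all tested miRNAs. With edgeR 0 passed. miR-335-5p (-1.70 ± 0.56), miR-96-5p (-1.62 ± 0.60), miR-183-5p (-1.53 ± 0.44) and miR-148a-3p (-1.34 ± 0.44) lay on the side of miR-7-5p, and miR-182-5p was at -0.47 ± 0.42. miR-127-3p (2.89 ± 1.01) lay on the side of miR-375, from 30.2 and 172.0 CPM in the CD44v6-positive samples against 18.6 and 7.43 CPM in the CD44v6-negative samples, and its value was 1.41 without CD44v6-positive sample 2 (edgeR adjusted p = 0.326). It passed the edgeR threshold without CD44v6-positive sample 1 (3.61, adjusted p = 0.0012), without CD44v6-negative sample 1 (3.76, adjusted p = 0.0289) and with total count scaling (3.46, adjusted p = 0.0231).

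The miRNAs whose levels ran most like those of each member over the 4 samples were found by the root mean square distance of centred log2(CPM + 1), among 420 tested miRNAs of at least 10 CPM on average. For miR-375 the closest were miR-486-3p at a distance of 0.066, miR-320c at 0.17 and miR-6511b-5p at 0.21. For miR-7-5p they were miR-32-5p (0.12), miR-30e-5p (0.13) and miR-324-5p (0.15). For miR-9-5p they were miR-23a-3p (0.068), miR-103b (0.094) and miR-103a-3p (0.11), and for miR-9-3p miR-200a-3p (0.082), miR-26b-5p (0.14) and miR-181c-5p (0.17). The median distance of all compared miRNAs was 1.13 from miR-375, 1.07 from miR-7-5p, 0.98 from miR-9-5p and 1.15 from miR-9-3p. For miR-138-5p the closest was miR-449b-5p (0.13), and for miR-129-5p no miRNA came nearer than miR-139-5p (0.83), which was also high in sample 1 of both groups. With 4 samples such likeness is a description only.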

How the data were processed

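Small RNA reads from sorted HCT116 spheroid cells were used as deposited. The authors deposited raw counts per mature miRNA and the same counts as a normalized signal, per the file headers; that signal equalled the count divided by a DESeq2 size factor per sample, of 0.576 and 0.156 for the CD44v6-positive samples and 3.09 and 3.58 for the CD44v6-negative samples, and was used no further. CASAVA 1.8.2, cutadapt 1.10, Bowtie 0.12.9, DESeq2 and the build GRCh38 are named in the submitters' processing notes. Not given in the sources used here are the miRNA annotation, the strand setting and the handling of reads that map to several places.

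Each of the 4 columns joins 2 sequencing entries and was counted as 1 sample. Groups were compared with edgeR 4.0.16 under R 4.3.3 (glmQLFit and glmQLFTest, TMM, filterByExpr with its count setting at 10, applied as a CPM cut that 2 of the 4 samples had to reach, and 15 reads in total, so that a tested miRNA can have fewer reads or 0 in some samples), adjusted over all tested miRNAs at 0.05. Each standard error was derived from the F statistic, as log2 fold change over root F. CPM uses the TMM factors of the tested miRNAs. Single counts have exact 95% Clopper-Pearson intervals, which cover counting error only, as reads copied by PCR are not independent molecules. Alternatives were RLE, upper quartile and total count scaling, no filter, a 10 CPM filter, DESeq2 1.42.0, limma-voom 3.58.1, a replicate block and leaving out each sample. The edgeR step was run on simulated data, with a pass condition set only for large changes at a fixed spread not taken from these samples. That check does not show how often a change would be called or missed at the spread of these samples. The members and lists were chosen with earlier results of these data known. The rule for names took every member, the other arms of their hairpins, the tested miRNAs of the nervous-system and endocrine lists, and the 3 miRNAs most like each tested member.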

Additional observations from a re-analysis of the deposited data

How the results depend on the processing

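The number of miRNAs called was 0 with edgeR and TMM, RLE or upper quartile scaling and with the 10 CPM filter, but 48 with total count scaling, 77 with no filter, 51 with DESeq2, 4 with limma-voom and from 26 to 55 with 1 sample left out. Members called were 0 of 6 in the edgeR fit, 1 of 6 with total count scaling (miR-375), 1 of 7 with no filter (miR-7-5p) and 1 with DESeq2 (miR-7-5p). The members' median log2 fold change was -0.87 with no filter, where the median over all tested miRNAs was -1.55. With 1 sample left out the members' median ran from -2.09 without CD44v6-positive sample 1 to -0.20 without CD44v6-negative sample 1. The medians over all tested miRNAs in those fits were -0.77 and -0.13. The -2.09 includes the value of -8.35 for miR-129-5p, which rests on a CD44v6-positive count of 0. With the replicate block, which pairs samples by number, 228 of 570 miRNAs and 4 of 6 members (miR-375, miR-7-5p, miR-9-5p and miR-9-3p) were called. The labels do not say that equal numbers share a culture. Deviations of sample 1 from its group mean correlated at 0.39 across 570 miRNAs, which are not replicates. miR-375, miR-7-5p, miR-9-5p, miR-9-3p and miR-7-1-3p kept their direction under all 12 alternatives. The median over all tested miRNAs moved from -0.31 to 0.036 with upper quartile and to 0.0054 with total count scaling, and the share of higher miRNAs at an unadjusted p under 0.05 from 42.5% to 58.4% and 56.6%.

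Direction turned for miR-128-3p with upper quartile scaling (0.073) and the 10 CPM filter (0.032), for miR-138-5p with no filter (-0.16) and for miR-874-3p with limma-voom (0.051). With 1 sample left out miR-129-5p ran from -8.35 to 3.21, miR-128-3p from -0.64 to 0.66, miR-132-3p from -0.29 to 0.98, miR-139-5p from -2.87 to 0.90, miR-181a-5p from -0.32 to 1.11, miR-184 from -0.43 to 1.73, miR-212-3p from -6.88 to 1.48, miR-874-3p from -6.92 to 0.24, miR-885-5p from -1.29 to 2.17 and miR-95-3p from -2.71 to 0.23. The lowest values of miR-129-5p, miR-212-3p and miR-874-3p come from leaving out CD44v6-positive sample 1, which leaves a CD44v6-positive count of 0, and are no bound on the size. The cause of the other changes was not tested. A fit with 1 sample in a group assumes that it varies like the other group. Depth limits the members with few reads, since 1 read is 5.21 CPM in CD44v6-positive sample 2, where miR-9-3p had 2, miR-138-5p 4, and miR-129-5p and miR-124-3p 0 reads.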

Other observations

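The strand opposite to MIR7-2 carries the hairpin MIR3529, and the table counts hsa-miR-3529-3p, whose 24 bases are complementary to miR-7-5p over their whole length. This entry was singled out after its values were seen. The sequences, 5′ to 3′ with bases 2 to 8 in capitals, are shown to let the match be read.
miR-7-5p: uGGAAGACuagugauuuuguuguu
miR-3529-3p: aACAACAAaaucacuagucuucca
In the table hsa-miR-3529-3p had 19 and 44 reads in the CD44v6-positive samples and 0 and 66 reads in the CD44v6-negative samples, or 20.5 and 229 CPM in CD44v6-positive cells and 0 and 12.0 CPM in CD44v6-negative cells. In CD44v6-positive sample 2 it was read nearly as often as miR-7-5p, at 44 against 48 reads, whereas in CD44v6-negative sample 1 it had 0 reads beside 6591 of miR-7-5p. The log2 fold change was 4.30 ± 1.94 (edgeR adjusted p = 0.190), both CD44v6-positive samples lay above both CD44v6-negative samples, and CD44v6-positive sample 2 was far above the rest. Whether the counting kept the strands apart is not given in the sources used here, so reads of these 2 entries cannot be told apart with certainty.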
